A study of Mus musculus with 15 samples.

Results

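*Lyz1*, *Lyz2*, *Csf1r*, *S100a8*, *S100a9*, *Adgre1*, and *Cd68* are genes that are widely used as markers of myeloid cells, that is, of macrophages, monocytes, and neutrophils. They were chosen by name, as 7 of the 21669 genes with a symbol in the deposited table, and their RNA was followed from naive B cells through 3 days of culture to activated B cells and plasmablasts. All 7 were present in naive B cell libraries, and the cultured libraries together held 2.31% (median over 12 libraries) of their summed naive level. *S100a8* and *S100a9* had no read in any cultured library, *Lyz1*, *Lyz2*, *Csf1r*, and *Adgre1* were lower in culture by 44.6-fold to 512-fold, and *Cd68* was lower by 4.02-fold.

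Naive B cells (nB) were CD43- cells that had been isolated from the spleens of wild-type female C57BL/6J mice by depletion of CD43+ cells on a magnetic column, and were not stimulated. Such a column leaves what does not carry CD43 and does not select for a B cell antigen. The same kind of CD43- cells were cultured for 3 days with LPS, IL2, and IL5 and with either DMSO, the vehicle, or GSK343, an inhibitor of the histone H3K27 methyltransferase EZH2, and were then sorted as activated B cells (actB, B220+GL7+CD138-) or plasmablasts (Pb, CD138+). The 5 groups, nB, actB with DMSO, actB with GSK343, Pb with DMSO, and Pb with GSK343, have 3 libraries each, numbered 1 to 3. For Pb with GSK343 the labels give IL6 in place of IL5, and if they hold, GSK343 against DMSO in Pb also compares IL6 with IL5.

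Mononuclear phagocytes and neutrophils of the spleen digest microbes and dead cells. CSF1R, which binds the cytokines CSF1 and IL34, is needed for the survival of most macrophages, and ADGRE1, the antigen F4/80, is an adhesion receptor of the surface of mouse macrophages. CD68 is a glycoprotein of the membrane of lysosomes and late endosomes. *Lyz1* and *Lyz2* encode lysozymes, which cut the bacterial cell wall, and *Lyz2* is the one that macrophages and neutrophils use. S100A8 and S100A9 pair to form calprotectin, a calcium-binding and zinc-binding complex that fills the cytosol of neutrophils.

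The libraries hold 19421830 to 26307413 reads, and the values below are RPKM, reads per kilobase of exon and per 1000000 counted reads. Replicates 1 and 2 of nB differed by less than the sampling noise (chi-square per degree of freedom of 0.00958 over 14442 genes, against 3.58 to 29.7 for other pairs of libraries of 1 group). They were counted as 1 library, so that nB has n = 2 and the series 14 libraries. The study describes the libraries of a group as biological replicates, and the sources do not say how the mice were divided among them. *Cd79a*, which encodes a signalling chain of the B cell receptor, was at 1096 to 1221 RPKM in nB, 519 to 617 RPKM in actB, and 372 to 463 RPKM in Pb. *Spn*, which encodes CD43, was at 8.89 to 9.16 RPKM in nB.

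In mm9, the genome build of the deposited data, *Lyz1* (chr10:116724852-116729924, minus strand) and *Lyz2* (chr10:116714390-116719377, minus strand) are neighbours with 5474 bases between them. *S100a8* (chr3:90472993-90473956, plus strand) and *S100a9* (chr3:90496554-90499643, minus strand) lie 22597 bases apart. *Adgre1*, listed as *Emr1* in the annotation, is at chr17:57498109-57622952 on the plus strand and *Cd68* at chr11:69477715-69479655 on the minus strand. The values are counts of reads over all exons of a gene, of which the annotation gives 4 blocks for each lysozyme gene, 3 for each calprotectin gene, 6 for *Cd68*, 22 for *Adgre1*, and 23 for *Csf1r*.

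The lysozyme genes are near copies, which bears on how reads of 50 bases are shared between them. Their coding sequences differ at 22 of 447 bases (95.1% identity), and 16.0% of the 50-base windows of the *Lyz1* transcript occur in that of *Lyz2*. The first 150 coding bases hold 14 of the differences and are printed from the mm9 genome and its annotation, with the differing bases in capitals.
Lyz1: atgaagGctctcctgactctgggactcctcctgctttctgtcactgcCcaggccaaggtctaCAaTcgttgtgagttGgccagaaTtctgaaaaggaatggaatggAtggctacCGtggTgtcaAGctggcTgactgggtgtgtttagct
Lyz2: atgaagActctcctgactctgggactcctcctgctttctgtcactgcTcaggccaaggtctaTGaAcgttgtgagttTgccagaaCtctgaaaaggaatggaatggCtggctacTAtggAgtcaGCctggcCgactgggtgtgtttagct
The stretches of identical sequence between these capitals are each shorter than 50 bases, so that a read within the printed bases covers a difference. The split of reads between *Lyz1* and *Lyz2* is uncertain for reads in the windows that both transcripts share. Their sum does not depend on that split.

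The members were high in the same libraries, and the 250 bases before the start of a calprotectin, a lysozyme, and the lysosomal gene are shown as examples of their promoters. They come from RefSeq on GRCm38.p6, another build than that of the data, and run 5′ to 3′ along the gene. RefSeq promoters were found for 5 of the members and not for *Adgre1* and *Csf1r*. Capitals mark the core of sites for the myeloid and B cell factor PU.1 (GAGGAA) and for C/EBP factors (TTNCNNAA, N for any base), each searched on both strands, where the motifs may overlap.
S100a8, chr3:90668821-90669070, plus strand: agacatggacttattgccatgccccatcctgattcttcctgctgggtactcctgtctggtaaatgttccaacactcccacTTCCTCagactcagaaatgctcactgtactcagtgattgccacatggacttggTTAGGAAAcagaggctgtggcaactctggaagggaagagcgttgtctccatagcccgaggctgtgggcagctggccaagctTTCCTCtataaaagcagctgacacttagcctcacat
Lyz2, chr10:117282273-117282522, minus strand: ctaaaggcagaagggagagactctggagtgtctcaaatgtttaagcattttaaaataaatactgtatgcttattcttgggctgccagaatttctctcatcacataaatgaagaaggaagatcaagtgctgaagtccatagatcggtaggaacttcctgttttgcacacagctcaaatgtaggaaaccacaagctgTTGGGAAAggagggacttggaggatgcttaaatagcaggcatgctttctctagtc
Cd68, chr11:69666171-69666420, minus strand: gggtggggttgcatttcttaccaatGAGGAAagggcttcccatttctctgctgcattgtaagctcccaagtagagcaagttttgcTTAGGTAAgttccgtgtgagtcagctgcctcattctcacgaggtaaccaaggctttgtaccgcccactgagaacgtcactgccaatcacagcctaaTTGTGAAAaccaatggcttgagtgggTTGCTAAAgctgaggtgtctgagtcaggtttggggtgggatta
*S100a8* has 2 matches to the PU.1 core and 1 to the C/EBP motif, *Lyz2* has 0 and 1, and *Cd68* has 1 and 3. The promoters not printed, those of *S100a9* and *Lyz1*, have 0 and 2 and 0 and 1, so that the PU.1 core was in the promoters of *S100a8* and *Cd68* alone and the C/EBP motif in all 5. Among 32851 promoters of this length, 23.3% hold the PU.1 core and 36.8% the C/EBP motif. A match is a run of letters and not a measured binding site.

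In nB, *Lyz2* was the most abundant member, with 152.0 RPKM in the merged replicates 1 and 2 and 180.4 RPKM in replicate 3. *Lyz1* was at 26.5 and 31.94 RPKM, *Cd68* at 18.66 and 22.59 RPKM, and *S100a8* at 11.18 and 13.37 RPKM in these libraries. *Csf1r* was at 9.155 and 16.77 RPKM, *S100a9* at 10.10 and 9.698 RPKM, and *Adgre1* at 6.212 and 11.19 RPKM. By the mean the order was *Lyz2*, *Lyz1*, *Cd68*, *Csf1r*, *S100a8*, *S100a9*, and *Adgre1*. *Lyz2* stood above *Lyz1*, *Lyz1* above *Cd68*, and *Cd68* above *Csf1r* in both libraries, while *Csf1r* overlapped both calprotectin genes, and *S100a9* overlapped *Adgre1*. Among all 21669 genes *Lyz2* ranked 266 in nB and *Adgre1*, the lowest member, ranked 6370.

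**Figure D1:**
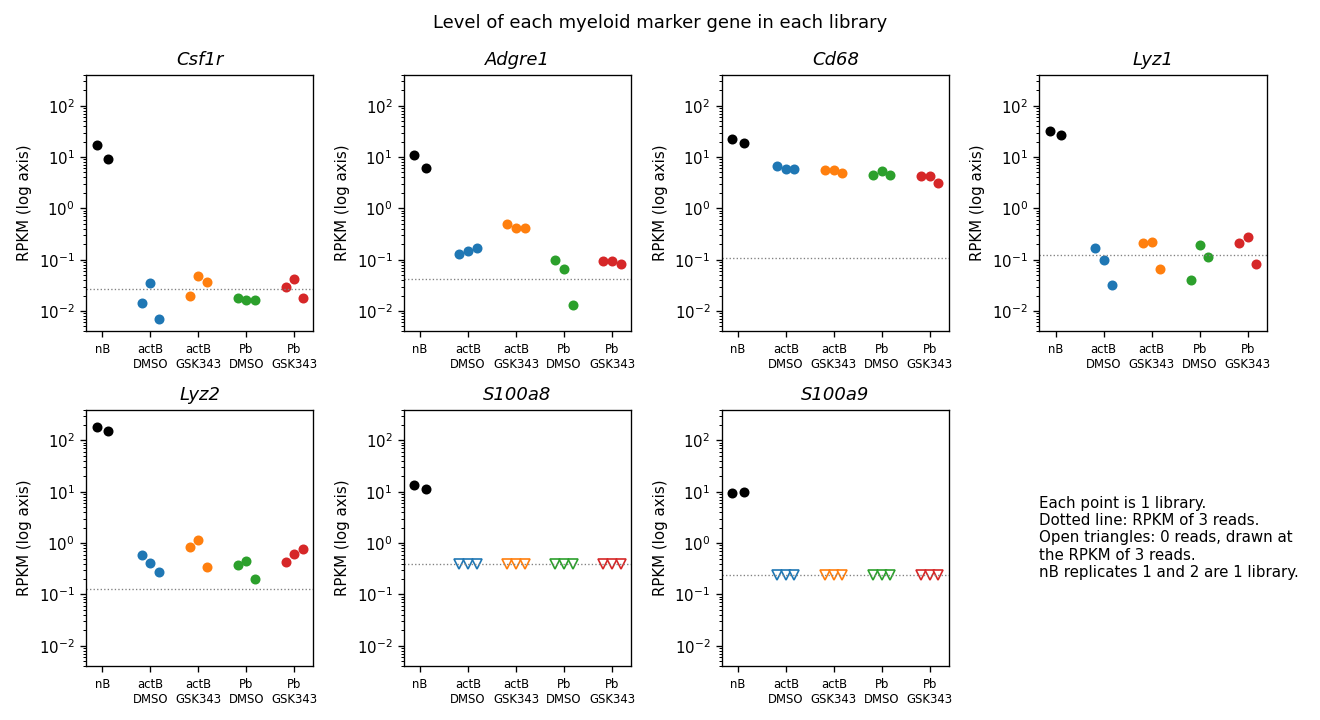
Level of each member in each of the 14 libraries, in RPKM on a log axis, with groups along the horizontal axis and 1 point per library. The dotted line is the RPKM of 3 reads, and open triangles, for *S100a8* and *S100a9* in culture, stand for 0 reads. Every nB library lies above every cultured library for each gene, and *Cd68* alone keeps a level of 3.14 to 6.59 RPKM in culture.

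The first comparison asks how the RNA of these genes changed from nB to the cultured stages. Each member fell in actB and in Pb with DMSO, comparisons that share the nB libraries. All 7 were called lower by limma on log2(RPKM + 0.25) at an adjusted p under 0.05, against 36.3% of all 11299 genes tested for actB and 41.1% for Pb, and edgeR on the recovered reads and a limma fit with a term for the replicate number, the block below, also called all 7. The median log2 difference of the members was -5.56 in actB, beside 0.05 over all genes tested. In Pb it was -5.57 as fitted and -5.45 with the calprotectin genes at their lower bounds, beside -0.02. Of the members, 6 passed the filter on low values only through nB, so that these counts and medians describe them and do not support a direction. In bulk RNA, fewer cells of a type and less RNA per cell cannot be told apart.

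The receptors went from many reads to few. *Csf1r* held 1237 reads in nB replicate 1 and 2252 reads in replicate 3, and 1 to 7 reads in each of the 12 cultured libraries, which is 0.0070 to 0.0484 RPKM with a median of 0.0185 RPKM. It was 684-fold higher in nB than in actB with DMSO (95% counting interval 347 to 1586) and 768-fold higher than in Pb with DMSO (353 to 2095). The nB and cultured libraries did not overlap, and the cultured ones held too few reads to order them. *Csf1r* lies at chr18:61265226-61291803 (mm9, plus strand) and shares 1742 exon bases with *Hmgxb3* on the other strand. *Hmgxb3* was at 4.88 to 6.16 RPKM in the cultured libraries in which *Csf1r* held these few reads.

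*Adgre1* fell less far and differed among the cultured groups. It held 526 reads in nB replicate 1, 942 in replicate 3, and 1 to 47 in the cultured libraries, whose lowest, median, and highest levels were 0.0131, 0.112, and 0.486 RPKM. The level in nB was 59.0-fold that in actB with DMSO (95% counting interval 43.0 to 83.4) and 149-fold that in Pb with DMSO (87.0 to 281). The ratio was lowest to actB with GSK343, at 19.8 (16.5 to 24.1). The groups did not overlap with nB in any case. On the log2(RPKM + 0.25) scale, which understates changes of low genes, the differences from nB were -4.44 (SE 0.20) in actB and -4.81 (SE 0.20) in Pb by limma. *Adgre1* passed the filter only through nB, so that no p-value is given for these differences.

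*Cd68*, the lysosomal gene, was the member that stayed on in culture. It was at 6.59, 5.92, and 5.86 RPKM in replicates 1 to 3 of actB with DMSO and at 4.56, 5.43, and 4.37 RPKM in Pb with DMSO. These levels rest on 205 to 225 reads in actB and 128 to 160 in Pb, against 620 and 746 in nB replicates 1 and 3, and lie below nB without overlap. The log2 difference from nB was -1.71 (SE 0.14, adjusted p = 1.62e-07 by limma) in actB and -2.05 (SE 0.14, adjusted p = 1.72e-08) in Pb. The ratios of its pooled RPM, nB over culture, were 3.37 (95% counting interval 3.06 to 3.71) and 4.31 (3.86 to 4.82).

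The lysozyme genes fell by similar amounts. *Lyz2* held 4283 reads in nB replicate 1 and 5048 in replicate 3, and 5 to 34 in each cultured library, with a lowest, median, and highest level of 0.196, 0.435, and 1.13 RPKM. *Lyz1* held 769 and 925 reads in these nB libraries and 1 to 7 in each cultured one, with 0.0324, 0.140, and 0.277 RPKM. Neither gene's nB libraries overlapped with a cultured one. *Lyz2* was 396-fold higher in nB than in actB with DMSO (95% counting interval 287 to 562) and 493-fold higher than in Pb with DMSO (334 to 762), and *Lyz1* was 295-fold (155 to 647) and 249-fold higher. By limma the log2 differences of *Lyz2* were -7.98 (SE 0.32) in actB and -8.16 (SE 0.32) in Pb. No p-value is given, since *Lyz2* passed the filter only through nB.

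The rarest reads were those of *Lyz1* and *Csf1r*, which appear in every cultured library but never in number. *Lyz1* held 5, 3, and 1 reads in replicates 1 to 3 of actB with DMSO, 7, 7, and 2 in actB with GSK343, 1, 5, and 3 in Pb with DMSO, and 6, 7, and 2 in Pb with GSK343. *Csf1r* held 2, 5, and 1 reads in actB with DMSO, 3, 7, and 5 in actB with GSK343, 2 in each replicate of Pb with DMSO, and 4, 5, and 2 in Pb with GSK343. GSK343 and DMSO overlap for both genes in both cell types, except that for *Csf1r* in Pb the lowest library with GSK343 equals the highest with DMSO, at 2 reads each. By limma the log2 differences of actB with DMSO from nB were -6.41 (SE 0.25) for *Lyz1* and -5.56 (SE 0.19) for *Csf1r*. No p-values are given, since both genes passed the filter only through nB.

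The calprotectin genes were the members with no detected RNA in culture. *S100a8* held 101 reads in nB replicate 1 and 120 in replicate 3, *S100a9* held 152 and 145, and both held 0 reads in all 12 cultured libraries. With 3 reads per library as the limit that a count of 0 allows, *S100a8* was at least 35.7-fold and *S100a9* at least 47.9-fold higher in nB than in the cultured libraries together. These bounds are lower than the ratios of the lysozyme genes because the short calprotectin transcripts gave fewer reads in nB, and they do not say that the calprotectin genes fell less. Counting intervals and limits cover counting error only.

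**Figure D2:**
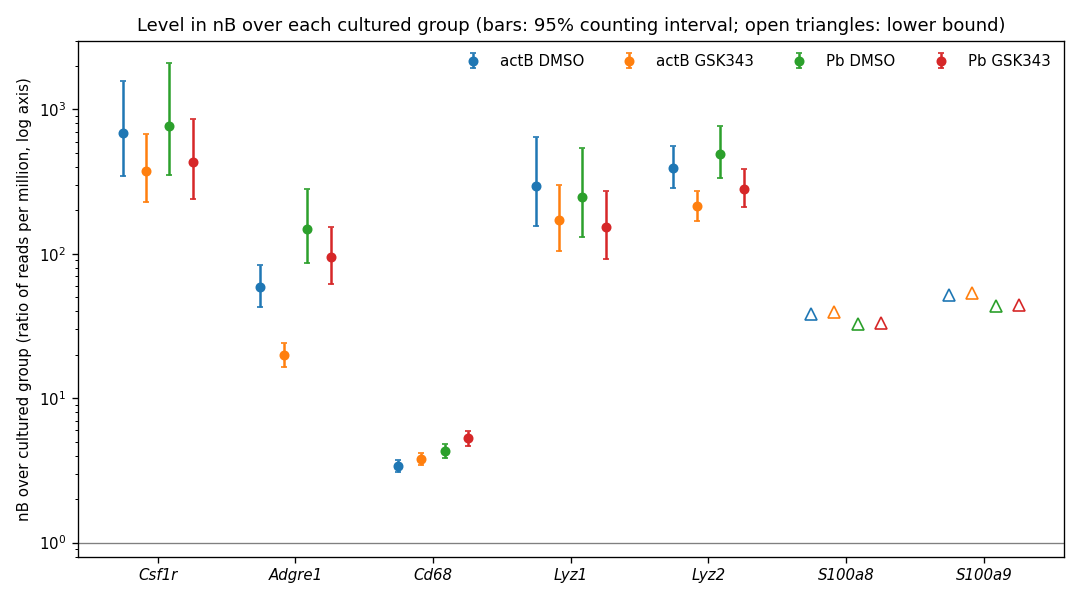
Ratio of RPM (reads per 1000000 counted reads) in nB to those in each of the 4 cultured groups, on a log axis, for each member. Points have 95% counting intervals and open triangles are lower bounds for genes with 0 reads in the group. *Csf1r* and *Lyz2* show the highest ratios, *Cd68* stays between 3.37 and 5.27, and *Adgre1* spreads from 19.8 to 149 among the groups.

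The falls were also read as ratios of means and as sums over the members. A mean in nB of at least 10 times the mean of the cultured libraries was found for 6 of the 7 members, all but *Cd68*, and for 2.91% of the genes tested. These 6 are the members that passed the filter on low values only through nB. The filter thus favoured high ratios among them, so that this count and the next describe the members and are no contrast with all genes. All 7 had every nB library above every cultured library, as did 29.2% of the genes tested. Summed over the members, the level was 233.8 to 286.0 RPKM in nB, 6.34 to 7.49 RPKM in actB with DMSO, and 4.71 to 6.14 RPKM in Pb with DMSO. With GSK343 the sum was 5.84 to 7.50 RPKM in actB and 4.08 to 5.22 RPKM in Pb, which overlap with DMSO. *Lyz2* made up 63.1% to 65.0% of this sum in nB, and *Cd68* made up 75.7% to 92.8% of it in culture. Without *Cd68* the cultured sum was 0.142% to 0.761% of the nB mean.

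Some proportions between members were closer in nB than in culture. The ratio of *Lyz2* to *Lyz1* in RPKM was 5.65 to 5.74 in nB and 1.73 to 9.40 in the cultured libraries, where it rests on few reads. The ratio of *Adgre1* to *Csf1r* was 0.667 to 0.679 in nB and had a median of 5.18 in culture, where the lowest was 0.798. *Adgre1* was thus the more abundant receptor per kilobase in all cultured libraries but replicate 3 of Pb with DMSO, while *Csf1r* was so in both nB libraries. The ratio of *S100a8* to *S100a9* was 1.11 and 1.38 in the nB libraries.

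The nB libraries themselves differed, and the members did not do so alike. In RPM, replicate 3 was 1.83-fold higher than the merged library for *Csf1r* (95% counting interval 1.71 to 1.97) and 1.80-fold higher for *Adgre1* (1.62 to 2.01). *Lyz1*, *Lyz2*, *S100a8*, and *Cd68* were 1.19-fold to 1.21-fold higher, and *S100a9* was at 0.960 of the merged library (0.759 to 1.21). The macrophage receptors thus moved apart from the calprotectin genes, whose intervals include 1. The median over all genes was 1.01, with 5th and 95th percentiles of 0.848 and 1.28, and 0.876% of genes reached the ratio of *Csf1r*. With 1 library on each side there is no test of the difference.

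Many other genes of macrophages were higher in replicate 3 along with the receptors. The macrophage and monocyte list had a median ratio of 1.62, with 13 of its 24 genes at 1.5 or more, beside 1.78% of all genes tested. Among the highest were *Vcam1*, an adhesion molecule, at 2.63, *C1qc*, a chain of complement C1q, at 2.61, and *Slc40a1*, the iron exporter, at 2.88. The lowest of the list was *Lgals3*, at 0.959, and *Itgam* and *Tyrobp* were each at 1.19. The erythroid list had a median of 3.34, the neutrophil list 0.993, the T cell list 1.06, and the B cell list 1.01. The 8 neutrophil genes spread from 0.371 (*Chil3*) to 2.44, and the B cell genes from 0.861 to 1.12. The part of other cells in these differences was not tested.

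**Figure D3:**
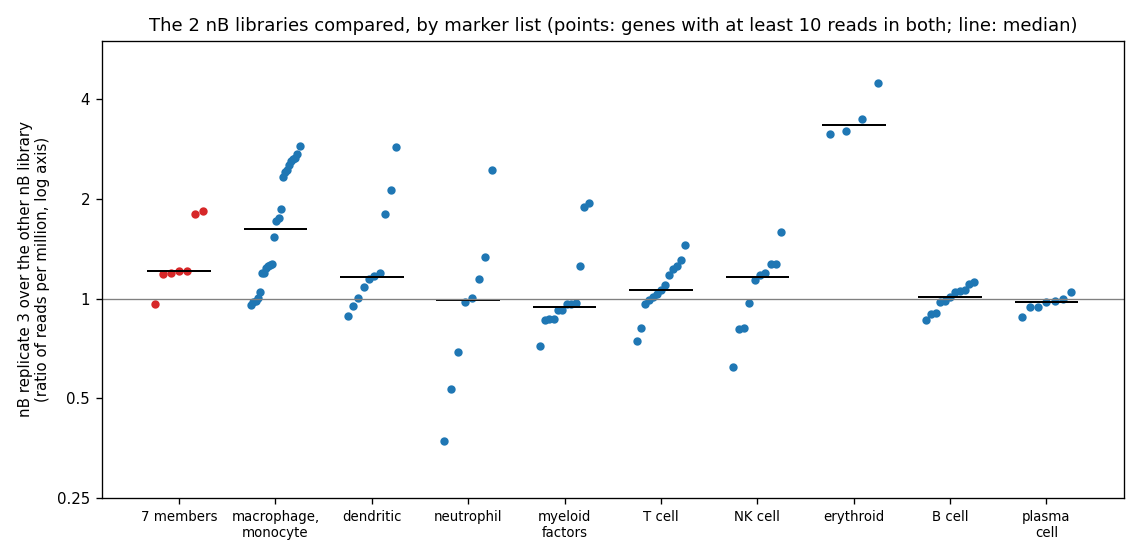
Ratio of nB replicate 3 to the merged library of nB replicates 1 and 2 in RPM, on a log axis, with 1 point per gene that has at least 10 reads in both and a line at the median of each list. The members reach from 0.960 to 1.83, the macrophage and monocyte list is centred on 1.62, and the erythroid list on 3.34. The neutrophil and B cell lists have medians close to 1, with genes from 0.371 to 2.44 and from 0.861 to 1.12.

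Wider lists of genes of other cells were read to place the members. In the cultured libraries, the summed RPKM of the macrophage and monocyte list had a median of 15.2% of its nB mean (7.92% to 27.8%), and the neutrophil list 36.7% (27.4% to 47.5%), both above the 2.31% of the members. Single genes outweighed these sums, since *Cxcr2* gave 5.71 to 10.6 RPKM of a neutrophil sum of 7.04 to 12.2 RPKM in culture, and *Mpeg1* gave 48.1 to 84.9 RPKM of a macrophage sum of 64.0 to 97.7 RPKM in actB with DMSO. The T cell list kept 20.0% (median), the NK cell list 10.3%, the erythroid list 2.23%, and the B cell list 33.4%, while the plasma cell list rose to 819%. Every nB library was above every cultured library for 19 of 24 macrophage and monocyte genes, 10 of 16 neutrophil genes, 12 of 13 T cell genes, 9 of 10 NK cell genes, and 11 of 11 B cell genes. The share of all genes tested was 29.2%. Some listed genes were not tested, and some passed the filter only through nB, as given below for the macrophage and monocyte list. These counts are thus a description. Lower levels in culture were therefore found for lists of several cell types, B cells included.

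**Figure D4:**
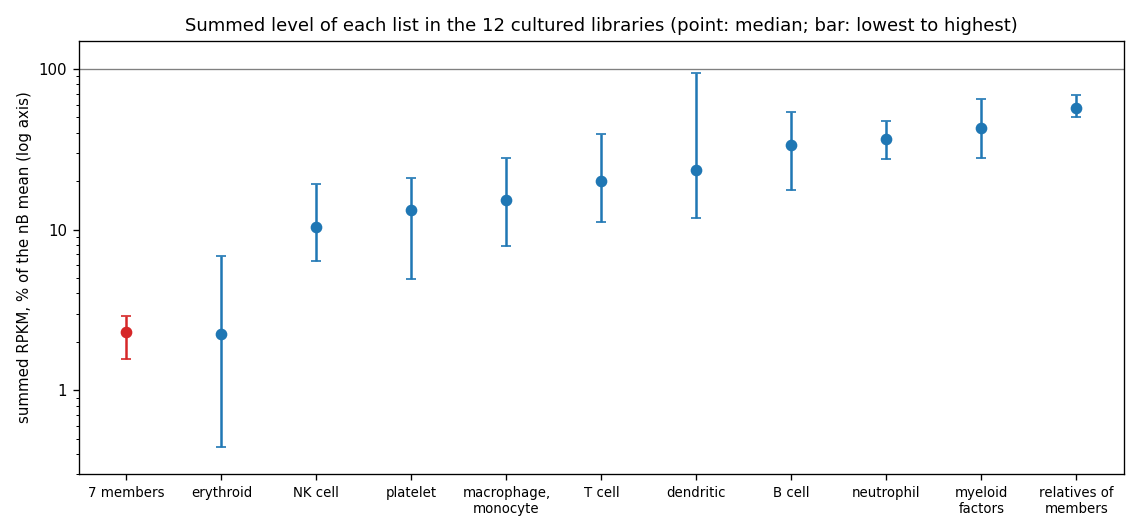
Summed RPKM of each list in the 12 cultured libraries as a percentage of its mean in nB, on a log axis, with the median as a point and a bar from the lowest to the highest library. The members are at 2.31%, the erythroid list at 2.23%, the macrophage and monocyte list at 15.2%, and the neutrophil list, most of it *Cxcr2*, at 36.7%.

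Some genes of the macrophage and monocyte list were lost as the members were, and others were not. *Vcam1* was at 8.63 to 22.7 RPKM in nB with 0 reads in all cultured libraries, and *C1qa* was at 9.39 to 17.4 RPKM with 1 read in the cultured libraries together. *Tyrobp*, which encodes an adaptor of activating receptors, went from 111 to 133 RPKM in nB to 0.433 to 2.62 RPKM. *Mpeg1*, which encodes a pore-forming protein of phagocytes that B cells also express, was at 52.6 to 65.2 RPKM in nB, 48.1 to 84.9 RPKM in actB, and 2.34 to 6.94 RPKM in Pb. Of the list, 19 of 24 genes were tested, and limma called 17 lower and 0 higher in actB with DMSO against nB, and 18 lower and 0 higher in Pb, beside 36.3% and 41.1% lower among all genes. Of those tested, 11 had passed the filter only through nB.

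Genes of the neutrophil list did not all go with *S100a8* and *S100a9*. *Csf3r*, the G-CSF receptor, was at 3.66 to 4.19 RPKM in nB and at 0 to 0.0875 RPKM in culture. *Chil3* and *Retnlg*, proteins of neutrophils, held 568 and 46 reads in nB and 0 reads in all cultured libraries. *Cxcr2*, a chemokine receptor, was at 4.88 to 9.28 RPKM in nB and 5.71 to 10.6 RPKM in culture, which overlap. *Camp* and *Lcn2*, genes of neutrophil granules, also overlapped, with 0.217 to 0.583 and 0.458 to 0.921 RPKM in nB and 0.409 to 0.963 and 0.225 to 0.860 RPKM in Pb with DMSO. These levels rest on few reads per library, 3 to 8 and 9 to 18 in nB and 5 to 12 and 4 to 15 in Pb with DMSO, so that their overlap says little.

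Factors that act on myeloid genes were measured beside the members. *Spi1*, which encodes PU.1 and is used by B cells as well, was at 86.3 to 99.5 RPKM in nB, 36.5 to 41.1 RPKM in actB, and 25.6 to 29.5 RPKM in Pb. *Irf8*, also shared with B cells, was at 82.5 to 85.8 RPKM in nB, 98.8 to 128 RPKM in actB, and 28.5 to 36.2 RPKM in Pb. *Cebpa*, which B cells are not known to need, was at 1.33 to 1.67 RPKM in nB, with 1 read in the cultured libraries together. Among 12 factors tested, limma called 2 higher (*Cebpd*, *Irf8*) and 10 lower in actB with DMSO against nB, where 36.3% of all genes were lower.

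Ligands and partners of the members were mostly low or shared by all stages. *Csf1*, a ligand of CSF1R, was at 1.61 to 1.92 RPKM in nB, 2.25 to 7.17 RPKM in actB with DMSO, and 0.257 to 0.686 RPKM in Pb with DMSO, and *Il34*, the other ligand, did not pass 0.0436 RPKM. *Tlr4*, a receptor of calprotectin and of LPS, was at 7.97 to 10 RPKM in nB and 4.59 to 6.91 RPKM in culture. The relatives *S100a10* and *S100a11*, which are not restricted to myeloid cells, were at 170 to 183 and 232 to 236 RPKM in nB and still at 91.1 to 178 and 87.6 to 187 RPKM in culture.

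The next comparison, Pb against actB with DMSO, asks whether the members differed between the cultured stages. *Cd68* was 0.34 lower on the log2 scale in Pb (SE 0.12, adjusted p = 0.0242 by limma). Its libraries, at 5.86 to 6.59 RPKM in actB and 4.37 to 5.43 RPKM in Pb, did not overlap, as for 43.3% of the genes tested in this direction. It was 1 of 7 members called lower, against 42.4% of the genes tested, and the call was lost in edgeR (adjusted p = 0.0751), where 38.0% of genes were lower. Over all genes the median log2 difference was -0.12, and with libraries scaled to a common median the call of *Cd68* was lost too (adjusted p = 0.107). It was also lost without replicate 1 of actB with DMSO (0.0844) and without replicate 1 (0.0712) or replicate 3 (0.0882) of Pb with DMSO.

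*Adgre1* was at 0.127, 0.147, and 0.168 RPKM in actB with DMSO and at 0.098, 0.0667, and 0.0131 RPKM in Pb with DMSO. The groups did not overlap, as for 43.3% of the genes tested in this direction, on 11 to 15 reads and 1 to 7 reads per library. The log2 difference of -0.37 (SE 0.18) had an adjusted p of 0.0824 by limma and of 0.0406 by edgeR, which fitted a difference of -1.25 and called this member alone. *Lyz2* did not pass the test, with a difference of -0.19 and an adjusted p of 0.58 by limma, and *Lyz1* and *Csf1r* held at most 5 reads in any of these libraries.

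The study's drug, GSK343, was compared with DMSO within each cell type to ask whether inhibition of EZH2 changed the members. In actB, *Adgre1* rose and was the only member called by limma, by edgeR, or with the block. It was at 0.127, 0.147, and 0.168 RPKM in replicates 1 to 3 with DMSO and at 0.486, 0.419, and 0.405 RPKM with GSK343. Each library with GSK343 was above each with DMSO, and the reads went from 39 to 120 in all, a ratio of 2.98 (95% counting interval 2.06 to 4.39). The log2 difference was 0.79 (SE 0.18, adjusted p = 0.0156 by limma). The level in nB was still 19.8-fold higher than that in actB with GSK343.

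This count of 1 of 7 members stands beside 8.20% of all genes tested that were higher with GSK343 in actB. The call of *Adgre1* was lost with a pseudocount of 1 (adjusted p = 0.157), with quantile normalization (0.0967), and without replicate 1 of actB with DMSO (0.0597), without replicate 1 of actB with GSK343 (0.0593), or without replicate 2 of every cultured group (0.0586). The smallest two-sided p that an exact permutation test can give for 3 against 3 libraries is 0.1.

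The other members did not pass the test in actB. *Lyz2* was at 0.588, 0.408, and 0.270 RPKM with DMSO and at 0.840, 1.13, and 0.348 RPKM with GSK343, which overlap (log2 difference 0.55, SE 0.29, adjusted p = 0.265 by limma). Its reads went from 37 to 71, a ratio of 1.86 (95% counting interval 1.23 to 2.84). *Cd68* was at 6.59, 5.92, and 5.86 RPKM with DMSO and at 5.64, 5.68, and 4.98 RPKM with GSK343. It was lower without overlap, but the log2 difference of -0.17 had an adjusted p of 0.46 by limma. Such separation was found for 7.52% of the genes tested in this direction, and for 18.3% in that of *Adgre1*. *Lyz1* went from 9 to 16 reads over the 3 libraries and *Csf1r* from 8 to 15, with ratios of 1.72 (0.716 to 4.42) and 1.81 (0.722 to 4.94), and the calprotectin genes had none.

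In Pb no member was called by limma, by edgeR, or with the block, against 12.9% of the genes tested (7.90% higher) by limma. At an unadjusted p under 0.05 there was 1 member of 7, *Cd68*, beside 26.9% of genes. *Cd68* was at 4.56, 5.43, and 4.37 RPKM with DMSO and at 4.31, 4.19, and 3.14 RPKM with GSK343. Each library with GSK343 was lower than each with DMSO, as for 15.3% of genes tested, and the log2 difference of -0.29 (SE 0.12) had an adjusted p of 0.148 by limma and 0.182 by edgeR. *Adgre1* held 13 reads with DMSO and 21 with GSK343 in all, a ratio of 1.57 (95% counting interval 0.753 to 3.42), and *Lyz2* 25 and 45, a ratio of 1.75 (1.05 to 2.99). Neither passed the test, with adjusted p-values of 0.648 and 0.263 by limma.

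**Figure D5:**
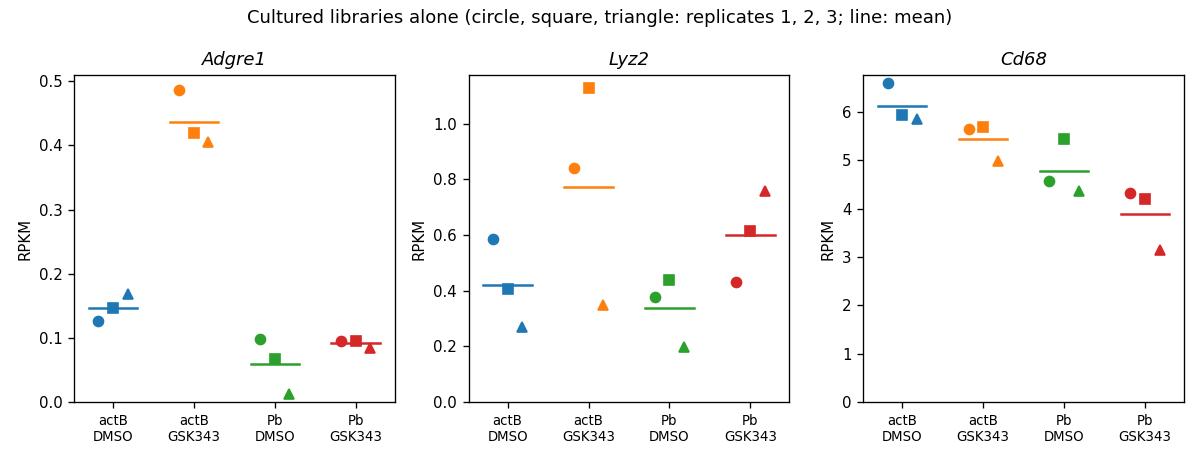
RPKM of *Adgre1*, *Lyz2*, and *Cd68* in the 12 cultured libraries, on linear axes that start at 0, with circles, squares, and triangles for replicates 1, 2, and 3 and a line at the group mean. *Adgre1* stands at 0.405 to 0.486 RPKM in actB with GSK343 and at 0.168 RPKM or less in all other cultured libraries.

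Whether the effect of GSK343 differed between Pb and actB was tested with an interaction term. For *Adgre1* the effect in Pb was lower by 0.64 on the log2 scale than that in actB (SE 0.25, unadjusted p = 0.0263), which did not pass the adjustment (adjusted p = 0.458 by limma and 0.888 by edgeR). It was the only member of 7 at an unadjusted p under 0.05 by limma, where 6.18% of all genes were lower in Pb by this measure, and edgeR had none. After adjustment limma, edgeR, and the fit with the block called 0 of 7 members, beside 0.248% of all genes by limma. In this and the other comparisons between cultured groups *S100a8* and *S100a9*, with 0 reads, could not be called, and *Lyz1* and *Csf1r* had few reads, so that counts of 7 are not shares of 7 informative genes. A change of *Adgre1* with GSK343 in actB that differs from that in Pb was thus not shown.

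Of 19 genes of the macrophage and monocyte list tested, 4 were called higher and 0 lower with GSK343 in actB by limma, beside 8.20% higher among all genes, and the median log2 difference was 0.07, beside 0.03 over all genes. *Itgam*, the integrin chain CD11b, was at 3.5, 4.65, and 4.66 RPKM (lowest, median, and highest) with DMSO and at 6.6, 10.5, and 12.8 RPKM with GSK343 (log2 difference 1.14, SE 0.19, adjusted p = 0.00376). *Sirpa*, which encodes the receptor of CD47, was at 0.726 to 0.783 RPKM with DMSO and 1.94 to 2.66 RPKM with GSK343 (log2 difference 1.35, SE 0.18, adjusted p = 0.000996). The groups did not overlap for either gene, as for 18.3% of the genes tested in this direction. With the block *Ccr2*, a chemokine receptor of monocytes, was called as well (log2 difference 0.50, adjusted p = 0.0176, and 0.0544 without the block), as it was by edgeR. *Axl*, a receptor kinase for the uptake of dead cells, and *Lgals3*, galectin-3, rose by 1.18 and 0.79 (adjusted p = 0.0138 and 0.0168). Without replicate 1 of actB with DMSO neither was called (adjusted p = 0.051 and 0.0563 by limma), nor was *Lgals3* without replicate 3 of that group (0.0532) or replicate 1 of actB with GSK343 (0.0685).

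Markers of other cells moved in the same comparisons. In actB limma called *Thy1*, of 12 T cell genes, higher (log2 difference 1.07, adjusted p = 0.0251), *Sdc1* and *Jchain*, of 8 plasma cell genes, higher (0.41 and 0.37, adjusted p = 0.0422 and 0.0277), and *Fcer2a*, of 11 B cell genes, lower (-0.91, adjusted p = 0.0373). In Pb it called 5 of 11 B cell genes lower (*Ms4a1*, *Pax5*, *Ebf1*, *Cr2*, and *Fcer2a*, by 0.60 to 1.56 on the log2 scale), *Sdc1* higher (0.89, adjusted p = 0.000575), and *Irf4* lower (-0.25, adjusted p = 0.0225). Among all genes tested, limma called 8.20% higher and 2.16% lower in actB. For Pb the calls were 7.90% higher, and 565 of the 11299 genes lower. With the block the counts were 3 T cell, 5 plasma cell, and 2 B cell genes in actB and 1 T cell gene and 8 B cell genes in Pb, in the same directions. The shares of all genes were then 14.7% higher and 6.71% lower in actB and 13.7% higher and 10.9% lower in Pb. The calls of these markers were not followed with single libraries left out. The part of these markers in the changes of the macrophage genes and of *Adgre1* was not tested.

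*Axl* and *Lgals3* also rose in Pb, where *Axl* was higher by 1.40 (SE 0.26, adjusted p = 0.0048 by limma) and *Lgals3* by 0.84 (SE 0.18, adjusted p = 0.0109, and 0.0535 without replicate 3 of Pb with GSK343). No other gene of that list was called in Pb by limma or edgeR, and with the block *Mpeg1* was called lower (log2 difference -0.49, adjusted p = 0.0295). *Axl* was at 1.8 to 3.09 RPKM in Pb with DMSO and 5.66 to 7.06 RPKM with GSK343, and at 3.5 to 8.16 RPKM in nB. In the dendritic list *Ccr9*, a chemokine receptor, was higher in both cell types (log2 difference 1.08, adjusted p = 0.0256 in actB and 1.11, adjusted p = 0.019 in Pb), and *Itgax*, the integrin chain CD11c, in actB (0.62, adjusted p = 0.0153). With the block *Batf3* was also called higher and *Flt3* lower in actB (0.87 and -0.78, adjusted p = 0.0131 and 0.0121). The calls of *Ccr9* were lost without any 1 of 4 libraries in actB (adjusted p = 0.0624 to 0.104) and of 4 in Pb (0.0513 to 0.0806), and that of *Itgax* without replicate 1 of actB with DMSO (0.061). In the neutrophil list no gene was called in either cell type by limma.

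Among 12 relatives of the members tested, limma called 4 higher and 0 lower with GSK343 in actB, beside 8.20% higher among all genes. Of these 4, 3 were S100 genes, while *S100a8* and *S100a9* stayed at 0 reads. *S100a6*, which lies in the same family of calcium-binding proteins, was at 8.36 to 9.74 RPKM in actB with DMSO and 21.8 to 24.9 RPKM with GSK343 (log2 difference 1.30, adjusted p = 0.000524 by limma), and *S100a4* went from 0.747 to 1.61 RPKM to 2.93 to 4.72 RPKM (1.53, adjusted p = 0.00409). *S100a13* and the adhesion receptor *Adgre5*, a relative of *Adgre1*, rose by 0.32 and 0.30 (adjusted p = 0.0139 and 0.00355). In Pb *S100a6* and *S100a13* were higher by 0.52 and 0.23 (adjusted p = 0.0453 and 0.0485 by limma), beside 7.90% higher among all genes. These Pb calls were lost without most single libraries, with adjusted p-values of up to 0.132 for *S100a6* and 0.186 for *S100a13*, and that of *S100a13* in actB without replicate 3 of DMSO (0.062) or of GSK343 (0.0571). In edgeR neither was called in Pb, where 7.21% of all genes were higher, and with the block 4 relatives were called, where 13.7% were, which added *Adgre5* and *Lamp1* (adjusted p = 0.0365 and 0.0289). The block also added *S100a10* in actB (log2 difference 0.23, adjusted p = 0.0446), where 14.7% of all genes were higher with it.

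Among the factors, *Gfi1* and *Runx1* were higher with GSK343 in actB, by 0.90 and 0.34 (adjusted p = 0.00386 and 0.00396 by limma). In Pb *Maf* was higher by 0.61 and *Irf5* lower by 0.26 on the log2 scale (adjusted p = 0.0152 and 0.0147). With the block *Irf5* was also called lower in actB (-0.16, adjusted p = 0.02), and in Pb *Gfi1* higher (0.45, adjusted p = 0.0126) and *Spi1* lower (-0.12, adjusted p = 0.0436). *Ager*, which encodes the receptor RAGE that binds S100 proteins, was higher by 0.38 in actB (adjusted p = 0.0219). Each of these calls of *Maf*, *Irf5*, and *Ager* was lost without some single libraries, with adjusted p-values of 0.0518 to 0.0715, 0.0511 to 0.0662, and 0.0561 to 0.0928. For no gene of these lists did the effect of GSK343 differ between Pb and actB by limma after adjustment.

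The patterns of the members over the 14 libraries were compared by Pearson's r of log2(RPKM + 0.25), given as a description, since all of these patterns rest on the contrast of nB with culture. Between members r was at least 0.931 over 21 pairs, with a median of 0.971. *Lyz2* was most like *Adap2* (0.995), *Tgfbi* (0.995), and *Fyb* (0.993), *Adgre1* most like *Lilrb4a* (0.992), *Smurf2*, and *Rassf3*, and *Cd68* most like *Dnm2* (0.985), *Kdm6b*, and *Cdk13*. *Csf1r* was most like *AF251705*, *Hpgd*, and *Ear2*, *Lyz1* most like *Pid1*, *Gpr141*, and *Anxa3*, *S100a8* most like *Clec4a4*, *LOC100038947*, and *Sirpb1b*, and *S100a9* most like *Gm9733*, *Retnlg*, and *A530099J19Rik*. An r of at least 0.95 was reached by 237 genes tested for *Cd68* and by up to 454 for another member, so that the nearest genes are drawn from many.

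Within culture the members did not keep together. Over the 12 cultured libraries r between the 5 members with reads was -0.0408 to 0.571 over 10 pairs, with a median of 0.404. *Adgre1* was there most like *Usp49* (0.970) and *Plaur* (0.957), with 8 genes at 0.95 or more. For *Cd68* the nearest gene was *Atpaf1* (0.960) and for *Lyz2* it was *Arl8a* (0.865). These libraries share the culture, the sort, and in part the replicate number, and the low counts of *Lyz1*, *Lyz2*, and *Csf1r* limit any such likeness.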

How the data were processed

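RNA-seq was read for 15 libraries in 5 groups. The authors prepared stranded poly(A) libraries, aligned reads of 50 bp, in pairs, to mm9 by TopHat2, and counted reads over exons of Entrez genes with GenomicRanges. Whether counting used strand is not stated. The deposited values are RPM: each column sums to 1000000, and 100% of values are whole reads (tolerance 0.1), which were recovered. RPKM was computed here from RPM and the deposited gene length. The 92 genes without a symbol, with up to 0.0905% of a library's reads, were not used. The limit of 3 reads equals 0.114 to 0.154 RPM.

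The 11299 genes that reached 1 RPKM in 3 or more of the 15 columns were fitted over all 5 groups, merged to 14 libraries, with limma 3.58.1 in R 4.3.3 (eBayes with a trend) on log2(RPKM + 0.25). P-values are two-sided and Benjamini-Hochberg adjusted over all genes tested. edgeR 4.0.16 (quasi-likelihood) on the recovered reads was an alternative. Counting intervals are exact 95% intervals for a ratio of Poisson counts, computed with scipy 1.17.1 in Python 3.11.15. The scripts were tested on simulated data.

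The members and lists were chosen with earlier results of these data known. The rule for named genes took all members, from each list the 3 top genes by mean RPKM in nB and in culture and those called between GSK343 and DMSO, and the 3 genes most like each member. Top genes of the lists for other cells are mostly given by counts alone. Some results for other genes are not reported here. Genes outside the rule were named after their values were seen (*Spn*, *Hmgxb3*, *Cebpa*, *Vcam1*, *C1qa*, *C1qc*, *Slc40a1*, *Retnlg*, *Il34*, *Ccr2*). Of 17 neutrophil genes 16 are in the table. The replicate numbers may pair the samples. Deviations from group means correlated between libraries of different cultured groups of the same number with r of 0.158 to 0.502 (number 1), 0.435 to 0.713 (number 2), and 0.219 to 0.356 (number 3), and of different numbers with -0.603 to 0.370. Number 2 alone lies above the range of different numbers. The fit with the number as a block was therefore also run. Alternatives were other pseudocounts, filters, scalings, groups in the fit, all columns as deposited, and each library left out. edgeR with the block and a fit without replicate 2 of any cultured group were added after seeing the data.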

Additional observations from a re-analysis of the deposited data

How the results depend on the processing

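Fold changes were recomputed under each alternative, but not for genes of the T cell, plasma cell, and B cell lists. They cover the members and the genes of the other lists that limma called with GSK343. Of 850 such values, 770 kept their direction and side of the threshold, 75 lost the threshold, 4 passed it (*Adgre1*, Pb against actB), and 1 reversed: the difference of the GSK343 effect for *Cd68* was 0.010 without replicate 3 of Pb with GSK343, and its range over single libraries left out was -0.20 to 0.010. The calls lost are given in the report where 1 library decides them, and the cause was not tested. The number of genes called with GSK343 in actB was 1170, and 386 with the compared groups alone. In Pb it was 1458. With the block for the replicate number the counts were 2417 and 2780, and 2820 and 2890 in edgeR with the block. Over single libraries left out they were 608 to 1363 and 690 to 1304. The block changed no call of a member, and the calls it changed in the myeloid lists are given in the report. The difference of the effects had 28 calls, 222 with the block, 278 in edgeR with the block, 18 with quantile normalization, 4 with the compared groups alone, 48 with all columns as deposited, 146 without replicate 2 of every cultured group, and 0 to 58 over single libraries. Left-out libraries gave 7982 to 8747 calls for actB against nB, 8463 to 8932 for Pb against nB, and 7340 to 7788 for Pb against actB. The median r between members was 0.404 over cultured libraries alone. In actB, 926 genes were higher and 244 lower with GSK343, against 707 and 351 with median scaling, 606 and 378 with quantile normalization, 763 and 389 in edgeR with TMM factors, 737 and 401 with RLE factors, 1659 and 758 with the block, and 1529 and 1291 in edgeR with the block. For Pb against actB they were 3086 and 4791, against 3781 and 3932 with median scaling and 3805 and 3909 with RLE factors, and for the difference of effects 11 and 17, against 18 and 11 with median scaling. Median scaling moved the median over all genes of Pb against actB by 0.102. Depth limits *Lyz1* and *Csf1r* in culture, with at most 7 reads per library, and *S100a8* and *S100a9*, with none. For *Lyz1* and *Csf1r*, differences by limma among cultured groups are not given, and only ratios of pooled reads in actB are.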
